A study of Mus musculus with 9 samples.

Results

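The 9 genes described here belong to the Slc22 family of membrane carriers for organic ions and were taken from the table by gene symbol: Slc22a3, Slc22a5, Slc22a7, Slc22a18, Slc22a23, Slc22a26, Slc22a27, Slc22a28 and Slc22a30. The table holds 25 genes whose symbols start with Slc22a, among 27434 named genes and 75794 features in all. The study sequenced polyadenylated RNA from the nuclei of frozen livers of male CD1 mice, an outbred stock, bought at 7 to 8 weeks of age. The 4 control libraries came from mice given vehicle, of which 2 were taken 4 weeks and 2 were taken 6 weeks after injection. The 5 STAT5ca libraries came from mice given 2e11 genome copies of AAV8-STAT5ca by tail vein, of which 2 were taken at 4 weeks and 3 at 6 weeks. AAV8-STAT5ca is an adeno-associated virus of serotype 8, a serotype that enters mainly hepatocytes, carrying a constitutively active STAT5b. Ages were 11 to 12 weeks for the mice taken at 4 weeks and 13 to 14 weeks for those taken at 6 weeks, and all were killed at the same hour. Control mice received no virus, so effects of the virus and of the active STAT5b cannot be told apart, and the promoter of the transgene is not given in the sources used here. The sample titles number the males within each group, and the p-values set the group difference against the spread between these libraries. Whether the time after injection entered the fit is not given in the sources used here.

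Slc22 carriers span the membrane many times and move small organic cations, anions and zwitterions, among them drugs, hormones, vitamins and metabolites such as carnitine. In the liver they bring such substances from blood into the hepatocyte, where they are metabolised or passed on into bile. STAT5b is the transcription factor that growth hormone activates in hepatocytes, in pulses in males and more evenly in females, and it binds DNA as a dimer at the palindrome TTCNNNGAA.

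Values per group are the authors' RPKM, which are reads scaled by the length of the collapsed exons and by the depth of the library, with 1 value for the control libraries and 1 for the STAT5ca libraries, both times pooled. Single libraries therefore carry no value for most genes, and the spread between libraries enters through the edgeR adjusted p of the authors' deposited table, for which 0.05 was the threshold. Depth read from the steps between low RPKM values was 9489045 to 13144589 reads in the control libraries and 11823873 to 14863490 reads in the STAT5ca libraries. The hepatocyte markers were present in both groups, with a summed level of 14801 RPKM in controls and 25317 RPKM in STAT5ca livers over 12 genes, and albumin (Alb) made 4563 and 14666 RPKM of these sums. Other cell types also differed in their markers: 3 of 8 Kupffer cell genes were higher (sum 195 and 367 RPKM in control and STAT5ca), 2 of 8 endothelial genes were lower (349.6 and 242 RPKM), 3 of 8 stellate cell genes were lower (307 and 166 RPKM), and of 7 cholangiocyte genes 1 was higher and 1 lower (17.0 and 76.4 RPKM). Without Alb the hepatocyte sums were 10238 and 10651 RPKM, and without Spp1, which carries the cholangiocyte sum at 12.8 and 73.0 RPKM, the other 6 cholangiocyte genes summed to 4.15 and 3.34 RPKM. Over all named genes 3.87% passed the threshold as higher and 1.92% as lower. Among named genes with a mean of at least 1 RPKM the shares were 6.09% and 3.95%. None of the cell type markers was listed at 0. Their part in the results below was not tested, and in bulk samples fewer cells of a type and less RNA per cell cannot be told apart. Stat5b itself stood at 15.8 RPKM in controls and 14.8 RPKM with STAT5ca, with an adjusted p of 1 in the authors' deposited table, and whether reads of the transgene were counted under that name is not given in the sources used here.

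Of the 9 genes, 2 were higher and 3 were lower in STAT5ca livers in the authors' deposited table. Over all named genes the same threshold was passed by 3.87% in the higher and 1.92% in the lower direction (5.79% in either), and over the 11699 named genes with a mean of at least 1 RPKM by 6.09% and 3.95%. Slc22a26 and Slc22a27 rose, Slc22a28, Slc22a7 and Slc22a3 fell, and Slc22a30, Slc22a18, Slc22a23 and Slc22a5 did not pass. The median log2 fold of the 9 genes was -0.30, beside 0.00 over all named genes in the authors' deposited table. The plot of levels by group shows each gene at its height on the common RPKM scale.

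**Figure D1:**
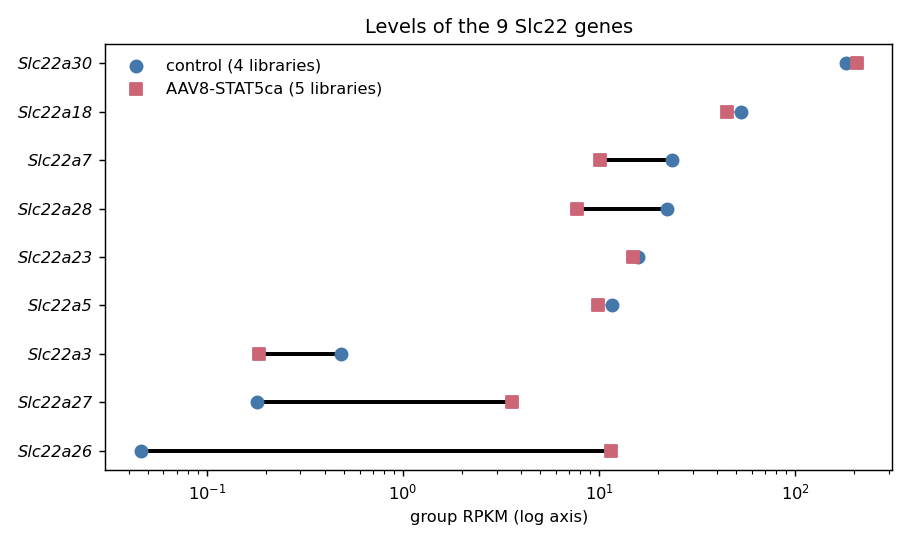
Level of each of the 9 genes in group RPKM (horizontal log axis), with 1 point for the control libraries and 1 for the AAV8-STAT5ca libraries. Slc22a26 crosses from 0.0462 to 11.5 RPKM, while Slc22a30 stays the highest of the 9 at 181 and 206 RPKM.

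Slc22a26, Slc22a27, Slc22a28 and Slc22a30 lie together on chromosome 19 in a rodent expansion of organic anion transporter genes, with Slc22a29 and Slc22a19 between and beside them. The gene descriptions in the table give each as predicted to take part in organic anion transport and related to human SLC22A25 and SLC22A9. From the start of Slc22a19 to the end of Slc22a30 the stretch covers 732 kb in the mm9 build of the files, and all 6 genes are on the minus strand in RefSeq. The calls of these 4 members differed: 2 rose, 1 fell and 1 did not pass. The bases just upstream of Slc22a28, which fell, and of Slc22a30, which did not pass, are shown for this reason, from RefSeq's GRCm38.p6 reference and on the minus strand, at chr19:8131983-8132226 for Slc22a28 and chr19:8405112-8405355 for Slc22a30. Capitals mark the bases at which the pair differs.
Slc22a28: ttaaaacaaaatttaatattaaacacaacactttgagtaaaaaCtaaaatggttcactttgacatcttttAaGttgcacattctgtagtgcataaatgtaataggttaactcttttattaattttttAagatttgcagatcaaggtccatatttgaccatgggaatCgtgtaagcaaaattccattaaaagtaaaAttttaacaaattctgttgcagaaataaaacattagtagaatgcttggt
Slc22a30: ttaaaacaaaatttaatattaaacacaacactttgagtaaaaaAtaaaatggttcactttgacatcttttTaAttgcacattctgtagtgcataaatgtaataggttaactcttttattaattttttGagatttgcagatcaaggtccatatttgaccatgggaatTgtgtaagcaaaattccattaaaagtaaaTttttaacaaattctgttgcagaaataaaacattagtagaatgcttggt

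In these 244 printed bases the pair differed at 6 positions. Over the whole window of 250 bases before to 50 after the start, 288 of 294 aligned bases were identical with 0 gaps (98.0%). Slc22a29 was 81.7% identical to Slc22a28 over 263 aligned bases with 25 gaps, and 82.9% to Slc22a30 over 257 with 21 gaps. Slc22a26 and Slc22a27 were 78.8% identical over only 156 aligned bases, with 82 gaps, so that value covers less of the window. The reference is that of the standard genome strain, and CD1 mice may carry other bases.

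Windows upstream of the 2 genes that rose are shown next because each holds a palindrome of the kind that STAT factors bind. For Slc22a26 the stretch is chr19:7802700-7802908 and capitals mark the match to TTCNNNGAA. For Slc22a27 it is chr19:7966037-7966086 and capitals mark the match to TTCNNNNGAA, the same arms with one base more between them, both on the minus strand of GRCm38.p6.
Slc22a26: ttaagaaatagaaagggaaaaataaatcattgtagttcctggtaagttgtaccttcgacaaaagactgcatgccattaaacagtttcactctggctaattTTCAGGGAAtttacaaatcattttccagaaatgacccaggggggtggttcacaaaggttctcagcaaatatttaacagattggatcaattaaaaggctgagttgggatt
Slc22a27: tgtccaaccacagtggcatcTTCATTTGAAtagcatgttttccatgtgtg

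The Slc22a26 match lies at positions -141 to -133 from the RefSeq start and the Slc22a27 match at -39 to -30. Both patterns read the same on either strand, and the matches do not overlap each other's pattern. TTCNNNGAA occurs in 8.30% and TTCNNNNGAA in 6.95% of all 32851 RefSeq promoter windows of this length. Of the 8 members with a window, Slc22a26 was the only one with the first pattern and Slc22a27 the only one with the second. Of the 14 other Slc22 genes with a window, 3 held the first pattern (Slc22a15, Slc22a16 and Slc22a19) and 2 the second (Slc22a8 and Slc22a22), and none of these 5 passed the threshold in the authors' deposited table. Slc22a2, which was listed at 0 in controls and passed as higher, had neither. Slc22a7 was not matched. A match is a description of the letters and says nothing about binding in these livers.

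Slc22a26 (chromosome 19, 7856472 to 7877157 in mm9) had almost no reads in control livers and rose by the largest fold of the 9 genes. Its level was 0.0462 RPKM in controls and 11.5 RPKM with STAT5ca, which moved it from rank 15161 to rank 4351 among the 27434 named genes. The control value rests on 4 reads: by order of depth, the 4 control libraries had 2, 0, 1 and 1 reads over a feature length of 1996 bases, or 0.106, 0, 0.0412 and 0.0381 RPKM. All 4 control libraries were thus at or near 0. The exact Poisson interval on 4 reads runs from 0.0126 to 0.118 RPKM at 95% confidence and covers counting error only. At the same length the STAT5ca value stands for about 1609 reads in the 5 libraries together. In the authors' deposited table the gene was 229-fold higher (log2 fold 7.84, adjusted p = 4.80e-24), and the size of that fold depends on those few control reads. With a pseudocount of 1 RPKM the log2 ratio of the group values was 3.58.

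Slc22a27 (chromosome 19, 7938880 to 8040517 in mm9), its neighbour 61722 bases away and also known as an organic anion transporter, rose from 0.180 to 3.61 RPKM. The control libraries had 5, 3, 8 and 1 reads by order of depth, or 0.246, 0.130, 0.308 and 0.0355 RPKM over 2140 bases, 17 reads in all. Each control library held at least 1 read, and the highest of them was far under the STAT5ca group value. Several ways to split the control value into whole reads were found, and this was the only one within 30 bases of an annotated transcript length. The interval on 17 reads runs from 0.105 to 0.288 RPKM, and the STAT5ca value stands for about 539 reads. The authors' deposited table gives Slc22a27 as 19.3-fold higher (log2 fold 4.27, adjusted p = 1.14e-12). The plot of control libraries sets these recovered values under the STAT5ca group values.

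**Figure D2:**
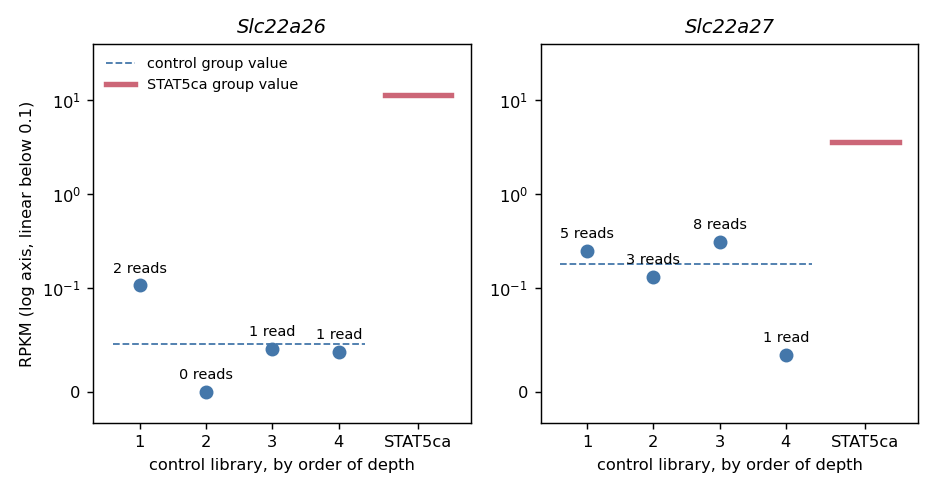
RPKM in each of the 4 control libraries, ordered by depth (vertical log axis, linear below 0.1), recovered from the group value for Slc22a26 and Slc22a27, with lines for the group values. Control libraries reach at most 0.106 RPKM for Slc22a26 and 0.308 RPKM for Slc22a27, under STAT5ca group values of 11.5 and 3.61 RPKM.

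Slc22a28 (chromosome 19, 8136700 to 8206472 in mm9), the next gene along, moved the other way. Its level fell from 22.1 RPKM in controls to 7.72 RPKM with STAT5ca, and its rank among named genes went from 2206 to 5888. The authors' deposited table gives Slc22a28 as 2.99-fold lower (log2 fold -1.58, adjusted p = 2.22e-07).

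Slc22a30 (chromosome 19, 8410114 to 8479595 in mm9) was the highest of the 9 genes in both groups. It stood at 181 RPKM in controls and 206 RPKM with STAT5ca, ranks 212 and 181 of all named genes. The authors' deposited table gives it as 1.08-fold higher with an adjusted p of 1. Slc22a29 (8234659 to 8293390), which lies between Slc22a28 and Slc22a30, was at 0.240 and 0.617 RPKM, and the authors' deposited table gives it as 2.39-fold higher with an adjusted p of 0.240.

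Counting may have mixed reads among these genes. In GENCODE M21 transcripts the coding sequences of Slc22a28 and Slc22a30 were identical at 1639 of 1659 bases (98.8%), and 36.9% of the 100-base windows of the Slc22a28 transcript also occur in that of Slc22a30. Slc22a27 and Slc22a29 shared 97.3% of coding bases and 7.40% of the Slc22a27 windows. Slc22a26 shared none of its windows with the other 5 genes, to which its coding sequence was 76.1 to 78.6% identical. How reads that fit several genes were counted is not given in the sources used here, so the levels of Slc22a28 and Slc22a30 are uncertain where their exons are alike.

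Within the stretch, the genes other than Slc22a30 had similar sums and different makeups in the groups. Slc22a26, Slc22a27, Slc22a28 and Slc22a29 summed to 22.5 RPKM in controls and 23.5 RPKM with STAT5ca. Slc22a28 made 97.9% of that sum in controls and 32.9% in STAT5ca livers, where Slc22a26 made 49.1%. With Slc22a30 included the sums were 204 and 229 RPKM, of which Slc22a30 made 88.9% and 89.7%. These sums have no test, since the table gives 1 value per group.

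Transcripts outside the annotated genes also differed between Slc22a26 and Slc22a27. The table lists 11 long noncoding RNA (lncRNA) features between the pair, of which 2 were higher, 0 were lower and 5 were at 0 in both groups in the authors' deposited table, beside 1.47% higher and 1.25% lower (2.72% in either direction) over all 48360 lncRNA features. The first, nc_inter_c19_14769 (7877215 to 7911280), lies 57 bases from Slc22a26 and went from 0.0113 to 0.109 RPKM, 9.04-fold higher in the authors' deposited table (adjusted p = 1.39e-05). The second, nc_inter_c19_14770 (7918105 to 7923575), 15.3 kb from Slc22a27 and 40.9 kb from Slc22a26, went from 0.0537 to 1.60 RPKM, 28.6-fold higher in the authors' deposited table (adjusted p = 6.98e-15), and was singled out after its values were seen. The intragenic feature nc_intra_c19_14774, which runs from 7980620 to 8475198 across the other genes, was at 2.34 and 1.66 RPKM with an adjusted p of 0.519 in the authors' deposited table. The plot of the stretch places genes and lncRNA features by position.

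**Figure D3:**
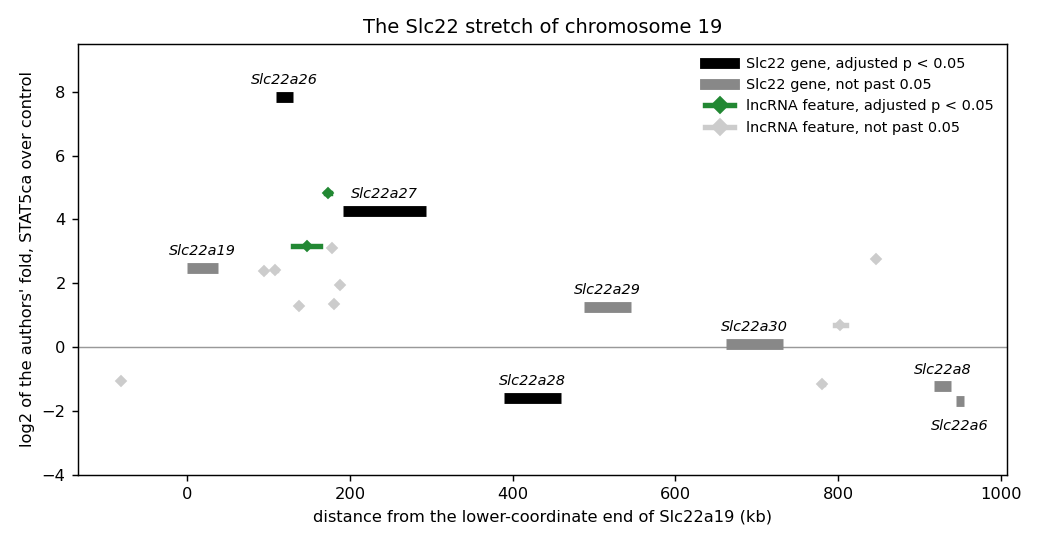
Log2 of the authors' fold (STAT5ca over control) of genes (bars over their extent) and lncRNA features (diamonds) against distance in kb along the Slc22 stretch of chromosome 19, without lncRNA features at 0 in both groups or over 100 kb long. The higher points past the threshold sit at Slc22a26, Slc22a27 and between them, Slc22a28 lies at -1.58 and Slc22a30 near 0 at 0.11. Points not past the threshold also lie high elsewhere, among them Slc22a19 at 2.48 and nc_inter_c19_31823 at 2.75.

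Slc22a7 (chromosome 17, 46569135 to 46575426 in mm9) encodes OAT2, an organic anion transporter of the hepatocyte's blood-facing membrane that also carries cyclic nucleotides and creatinine. Its level fell from 23.5 RPKM in controls to 10.1 RPKM with STAT5ca, from rank 2061 to rank 4796. The authors' deposited table gives Slc22a7 as 2.45-fold lower (log2 fold -1.29, adjusted p = 5.20e-05). The antisense feature nc_as_c17_29914 (46574615 to 46577493) overlaps one end of the gene and went from 2.12 to 0.611 RPKM, 3.63-fold lower in the authors' deposited table (adjusted p = 0.0120). The libraries kept strand, but whether the counting used it is not given in the sources used here, so reads of the overlap cannot be told apart. A second feature, nc_inter_c17_29911, 8085 bases away, was at 1.37 and 0.582 RPKM, 2.45-fold lower in the authors' deposited table (adjusted p = 0.0354). Within 10 kb of the 9 genes the table lists 28 lncRNA features. In the authors' deposited table the 2 beside Slc22a7 were lower and 1, the feature beside Slc22a26, was higher. Over all 48360 lncRNA features 1.47% were higher and 1.25% lower. Of the 28, 10 were at 0 in both groups and 8 had a mean of at least 0.1 RPKM. Of the flanking genes, Ttbk1, a tubulin kinase gene 3971 bases away, fell from 0.487 to 0.200 RPKM, 2.54-fold lower in the authors' deposited table (adjusted p = 0.0202). Crip3, 414 bases away on the other side, was at 5.95 and 5.18 RPKM with an adjusted p of 1 in the authors' deposited table.

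Slc22a3 (chromosome 17, 12612841 to 12700570 in mm9) encodes OCT3, a low-affinity carrier of monoamines and other organic cations, and is imprinted in the mouse placenta within the Igf2r domain. It was the lowest of the 9 genes by mean level (0.333 RPKM) and the only one under 1 RPKM on average. Its level was 0.483 RPKM in controls and 0.184 RPKM with STAT5ca, about 90.7 and 52.9 reads over the libraries of each group for a transcript of 4127 bases. The authors' deposited table gives Slc22a3 as 2.74-fold lower (log2 fold -1.46, adjusted p = 0.00315). No lncRNA feature within 10 kb of the gene passed the threshold in the authors' deposited table.

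No gene listed beside Slc22a3 in its domain passed in the lower direction. Slc22a2, which encodes OCT2, the main organic cation carrier of the kidney, lies 76485 bases away and was listed at 0 in control and at 2.02 RPKM in STAT5ca livers, with an adjusted p of 8.39e-24 in the authors' deposited table. The STAT5ca value stands for about 309.7 reads, and 1 read in a control library would have added 0.00866 to 0.0120 RPKM to the control group value. Plg, the plasminogen gene 590 bases from Slc22a3, was at 372 and 392 RPKM with an adjusted p of 1 in the authors' deposited table. Of 18 genes listed for the Igf2r and Kcnq1 imprinted domains, Slc22a2 alone passed, beside 5.79% of all named genes in either direction. The median log2 fold of the 18 genes in the authors' deposited table was 0.20.

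Slc22a5 (chromosome 11, 53678045 to 53705205 in mm9) encodes OCTN2, the sodium-dependent carrier that brings carnitine into cells. It was at 11.7 RPKM in controls and 9.87 RPKM with STAT5ca, 1.25-fold lower in the authors' deposited table with an adjusted p of 1. Its near relative Slc22a4, encoding OCTN1, a carrier of ergothioneine on the same chromosome, fell from 6.42 to 2.77 RPKM, 2.44-fold lower in the authors' deposited table (adjusted p = 1.66e-05). Slc22a21, which lies between the pair and is a further carnitine carrier gene of the mouse, was at 1.41 and 1.38 RPKM with an adjusted p of 1 in the authors' deposited table. For carnitine synthesis, transport and use 13 genes were listed. Of these, 0 passed the threshold of the edgeR adjusted p in the authors' deposited table. An upper bound of the unadjusted p, worked back from it, was under 0.05 for 2 of the 13. Over all 27434 named genes that bound was under 0.05 for 2549 in the higher and 1761 in the lower direction. Among the 13 genes Cpt1a attaches fatty acids to carnitine at the mitochondrial surface. It was at 37.4 and 28.7 RPKM with an adjusted p of 0.235 in the authors' deposited table. Slc25a20, the mitochondrial carnitine exchanger, was at 19.9 and 22.6 RPKM with an adjusted p of 1 in the authors' deposited table. Irf1, the flanking gene of Slc22a5 on the other side, was at 30.4 and 29.5 RPKM, also with an adjusted p of 1 in the authors' deposited table.

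Slc22a18 and Slc22a23 did not pass. Slc22a18 (chromosome 7, 150659695 to 150685237 in mm9), an imprinted carrier gene of the Kcnq1 domain, was the second highest of the 9 at 53.1 RPKM in controls and 45.1 RPKM with STAT5ca. The authors' deposited table gives it as 1.23-fold lower with an adjusted p of 0.748. Its imprinted neighbours Phlda2, 2216 bases away, and Cdkn1c, a cell cycle inhibitor gene, were at 1.42 and 2.53 RPKM and at 0.723 and 1.05 RPKM, with adjusted p-values of 0.276 and 1 in the authors' deposited table. Slc22a23 (chromosome 13, 34271028 to 34437051 in mm9), an orphan carrier gene, was at 15.8 and 14.9 RPKM, 1.12-fold lower in the authors' deposited table with an adjusted p of 1. Its flanking genes Psmg4 and Pxdc1 were at 3.69 and 4.42 RPKM and at 21.6 and 28.5 RPKM, with adjusted p-values of 1 and 0.667 in the authors' deposited table.

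By level, the control order from the top was Slc22a30, Slc22a18, Slc22a7, Slc22a28, Slc22a23, Slc22a5, Slc22a3, Slc22a27 and Slc22a26. In STAT5ca livers it was Slc22a30, Slc22a18, Slc22a23, Slc22a26, Slc22a7, Slc22a5, Slc22a28, Slc22a27 and Slc22a3. Slc22a26 thus went from last to the fourth place. Whether neighbours in these orders differ beyond the spread between libraries was not tested, since each has 1 value per group. The 9 genes summed to 308 RPKM in controls and 309 RPKM with STAT5ca, a ratio of 1.00, with Slc22a30 making 58.8% and 66.6% of the sums. Without Slc22a30 the sums were 127 and 103 RPKM.

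Among the other 16 Slc22 genes, 1 was higher (Slc22a2) and 1 was lower (Slc22a4), with a median log2 fold of -0.19 in the authors' deposited table. The shares over all named genes were 3.87% higher and 1.92% lower. Slc22a15, an orphan carrier gene, was at 2.56 and 1.85 RPKM with an adjusted p of 0.455 in the authors' deposited table. Slc22a17, which encodes a receptor for lipocalin-2, was at 3.71 and 2.82 RPKM with an adjusted p of 0.535 in the authors' deposited table. Genes best known from the kidney were near 0: Slc22a6 (OAT1) at 0.00474 and 0 RPKM, Slc22a8 (OAT3) at 0.0134 and 0.00402 RPKM, and Slc22a12, the urate carrier, at 0.00848 and 0.00624 RPKM. Slc22a13 was at 0.0535 and 0.0947 RPKM, Slc22a14 at 0.0200 and 0.00642 RPKM, and Slc22a19 at 0 and 0.0240 RPKM, while Slc22a16, Slc22a20 and Slc22a22 were listed at 0 in both groups. None of these low genes passed the threshold in the authors' deposited table. The scatter of the family sets the members beside them.

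**Figure D4:**
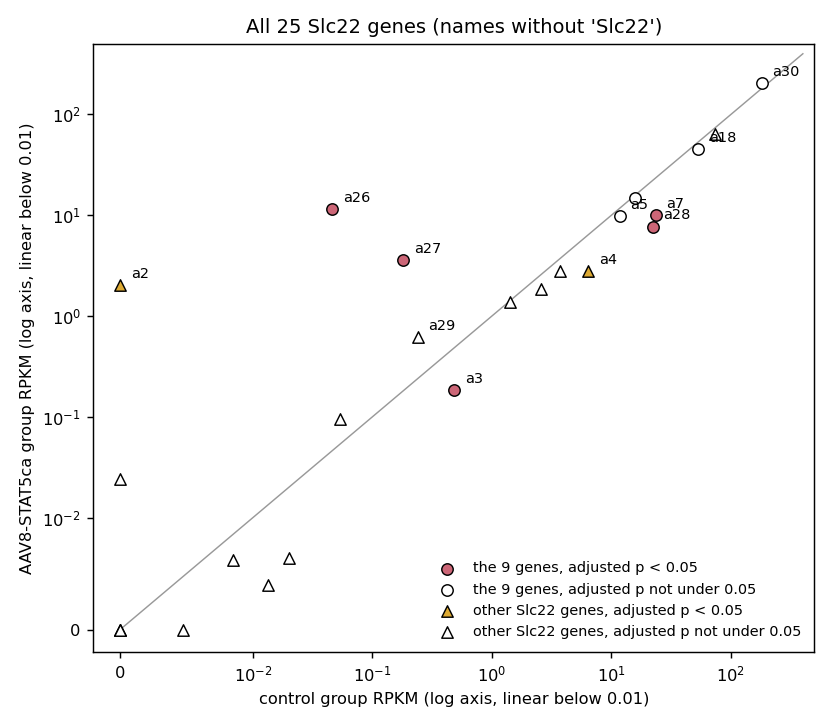
STAT5ca group RPKM against control group RPKM for all 25 Slc22 genes (both axes log, linear below 0.01), with the members set apart from the other 16. Slc22a26 (0.0462 and 11.5), Slc22a27 (0.180 and 3.61) and Slc22a2 (0 and 2.02) stand above the diagonal, and Slc22a28 (22.1 and 7.72) below it.

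Carriers of other families were read beside the Slc22 genes. Of 29 other organic ion transporters 1 was higher and 5 were lower, with a median log2 fold of -0.22 in the authors' deposited table. Over all named genes 3.87% were higher and 1.92% lower at the same threshold. The canalicular conjugate export pump gene Abcc2 fell from 99.3 to 52.9 RPKM, 1.97-fold lower in the authors' deposited table (adjusted p = 1.61e-04). The nucleoside carrier gene Slc29a1 fell from 209 to 123 RPKM, 1.80-fold lower in the authors' deposited table (adjusted p = 5.66e-04). Slc16a10, for aromatic amino acids, and Slco1a1, for bile salts and steroid conjugates, fell from 8.57 to 4.69 RPKM and from 93.1 to 57.7 RPKM, with adjusted p-values of 0.0134 and 0.0124 in the authors' deposited table. Of 6 genes for PDZ proteins that anchor carriers at the membrane, 0 passed the edgeR adjusted p. By the same upper bound 3 of the 6 had an unadjusted p under 0.05. Over all 27434 named genes 2549 did so in the higher and 1761 in the lower direction. Pdzk1 was at 9.32 and 11.2 RPKM with an adjusted p of 1 in the authors' deposited table.

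Of 22 genes for transcription factors with known roles in the expression of hepatic carriers, 5 were higher and 2 lower, with a median log2 fold of -0.11 in the authors' deposited table. Over all named genes 3.87% were higher and 1.92% lower at the same threshold. Of the 22 genes, 20 had a mean of at least 1 RPKM. Among all named genes at that level the shares were 6.09% and 3.95%. Cux2, a repressor found mainly in female liver, rose from 0.444 to 18.1 RPKM, 38.5-fold higher in the authors' deposited table (adjusted p = 5.43e-36). Bcl6, a repressor that can occupy STAT5 sites, fell from 28.9 to 6.93 RPKM, 4.42-fold lower in the authors' deposited table (adjusted p = 2.83e-09). The estrogen receptor gene Esr1 rose from 2.41 to 5.91 RPKM, with an adjusted p of 3.11e-05 in the authors' deposited table. Hnf4a, whose product drives many hepatic carrier genes, was at 83.7 and 85.3 RPKM with an adjusted p of 1 in the authors' deposited table.

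Genes of the liver lobule's zones moved in both directions. In the authors' deposited table, 2 of 15 pericentral genes were higher and 3 lower (median log2 fold -0.41). Of 12 periportal genes 1 was higher and 2 lower (median -0.38). Every gene of both lists had a mean of at least 1 RPKM. Of all named genes at that level 6.09% were higher and 3.95% lower. In the pericentral list Notum, an inhibitor of Wnt signalling, fell from 37.8 to 9.02 RPKM and the P450 gene Cyp1a2 from 93.7 to 42.0 RPKM, with adjusted p-values of 3.79e-14 and 2.52e-05 in the authors' deposited table. Slc13a3, a dicarboxylate carrier gene of the same list, rose from 1.19 to 2.71 RPKM, and Cyp2e1, another P450 gene, fell from 762 to 428 RPKM, with adjusted p-values of 0.00293 and 0.0110 in the authors' deposited table. In the periportal list Ctsc rose from 5.69 to 14.3 RPKM, and Pigr and Cyp2f2 fell from 146 to 84.7 RPKM and from 608 to 356 RPKM, with adjusted p-values of 0.00104, 2.71e-04 and 0.0101 in the authors' deposited table. The plot of lists shows the members beside these genes.

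**Figure D5:**
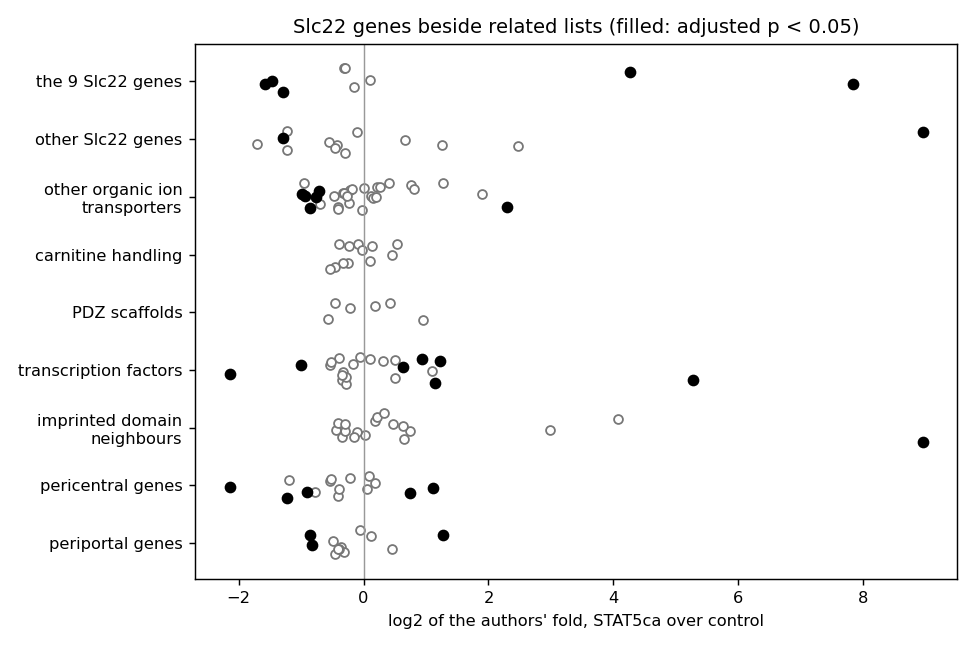
Log2 of the authors' fold (STAT5ca over control) of each gene in the Slc22 family and in the related lists, 1 row of points per list, filled where the adjusted p is under 0.05, without genes at 0 in both groups and with height inside a row set at random. The members reach from -1.58 for Slc22a28 to 7.84 for Slc22a26, and the point furthest right in 2 rows is Slc22a2, which is at 0 in controls so that its fold has no fixed size.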

How the data were processed

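Per the submitters' processing notes, the data were processed with STAR, featureCounts and edgeR, with no versions or roles given, on mm9. Per the file headers, the authors deposited 1 RPKM value per group over collapsed exons, a signed linear fold (a score above 0 where STAT5ca exceeds control) and an edgeR adjusted p-value. Of the adjustment method, the strand of counting and the use of time in the fit, the sources used here say nothing. The table has 1 value per group, so the deposited adjusted p under 0.05 was used as the test, with no refit. Log2 folds are those of the deposited fold. For alternatives, p-values were taken back to upper bounds of unadjusted values, assuming Benjamini-Hochberg adjustment, and adjusted again.

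Library totals and reads of low genes were worked out from steps in the deposited RPKM values of lncRNA features that were 1 interval. Lengths up to 6000 bases and up to 24 reads per group in control and 14 in STAT5ca were searched. The method was tested on simulated data: of 400 genes per group, reads of 95.8% in the control design and 96.8% in the STAT5ca design were recovered correctly. The simulation always offered an annotated length within 30 bases of the true one, so a wrong annotated length was not tested. For Slc22a27, whose reads were settled by such a length, these rates hold only if that length is right. Totals could not be matched to samples, so libraries are in order of depth. Promoters are RefSeq windows (GRCm38.p6) and coding sequences the longest open reading frames of GENCODE M21 transcripts, aligned with Biopython 1.88. Python 3.11.15, pandas 2.3.3, numpy 2.4.6 and matplotlib 3.10.9 were used.

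Members, gene lists and tests were chosen with earlier results of these data known. Genes named are the 9 members, all other Slc22 genes, the nearest named gene on each side of each member, lncRNA features within 10 kb past the threshold and, of each list, at most the 4 genes with the largest fold among those past the threshold with a mean of at least 0.5 RPKM. Some genes that this rule would name are not reported here. Carnitine, PDZ, Hnf4a and Stat5b genes were named for their role, after their values were seen. Of 182 listed genes 2 were not matched in the table. Alternatives were other thresholds, a minimum fold, both readjustments, pseudocounts, rescaling and a minimum level.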

Additional observations from a re-analysis of the deposited data

How the results depend on the processing

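Of 196 alternative values, 172 stayed with the main result and 24 moved. A count, fold or sum within 1.5-fold of the main value was taken as staying, and an adjusted p if it kept its side of the threshold. Counts, sums and adjusted p-values cannot change direction, and no fold of a Slc22 gene past the threshold did so. No single Slc22 gene that was adjusted again crossed the threshold, but counts of several lists did change. The members had 2 higher and 3 lower genes at adjusted p under 0.01 and 0.10, at a minimum fold of 2 and after both readjustments. With a minimum mean of 1 RPKM there were 2 lower, since Slc22a3 left. Lists moved more. Other organic ion transporters had 3 higher when p was adjusted again over features with at least 0.1 RPKM and 0 higher at a mean of at least 1 RPKM, with 2 lower at 0.01 and 0 at a fold of 2. PDZ genes had 1 higher after that readjustment. Regulators had 3 higher and 1 lower at a fold of 2. Pericentral genes had 1 higher at a fold of 2 and 5 lower after readjustment, and periportal genes 1 lower at 0.01 and 0 at a fold of 2. Endothelial markers had 1 lower at 0.01, 0 at a fold of 2 and 4 after readjustment. Hepatocyte markers had 1 lower after readjustment, and cholangiocyte markers 0 lower at 0.01. The cause was not tested. Pseudocounts moved low genes: with 0.1 and 1 RPKM the log2 ratio was 6.32 and 3.58 for Slc22a26 and 4.41 and 1.60 for Slc22a2, and with 1 RPKM it was 1.97 for Slc22a27 and -0.33 for Slc22a3. The log2 RPKM ratio of the median named gene with at least 1 RPKM was 0.09.

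No paired analysis was possible because the table holds 1 value per group, and for the same reason leaving out single libraries was not run. Depth limits Slc22a26 and Slc22a27 in controls, with 4 and 17 reads.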
